A study of Mus musculus with 16 samples.

Results

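The genes described here are 26 genes of cholesterol synthesis and of its control by the sterol regulatory element binding proteins (SREBPs), taken by symbol from the 40879 gene symbols counted in mouse kidney. They were chosen for their known roles, not by a measured value, but with earlier results of these data known. They comprise 20 synthesis enzymes, 5 SREBP regulators and the sterol carrier Stard4. All 26 had enough counts to be tested, among 14665 genes tested in all. Kidney RNA of male wild-type C57BL/6 mice was read by QuantSeq, a method that sequences the end of each transcript next to its poly(A) tail and counts reads per gene. Old + PM (3 libraries) are aged mice given Palmijihwang-tang and Old + YM (3 libraries) are aged mice given Yukmijihwang-tang. Both are herbal formulas. The oral dose was 100 mg/kg/day, 5 days per week, between 19 and 24 months of age. In 1 place the labels name YM in the PM dose, and the group name was followed. Old (5 libraries) are mice that aged without either formula, with no age at sampling given, and Young (5 libraries) are mice of 3 months. The labels mention 5 months of acclimatization for the 3 aged groups. Nothing in the labels says that each library is a separate mouse, so p-values measure only the spread between these libraries.

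Cholesterol is built from acetyl-CoA through mevalonate and farnesyl diphosphate to squalene, which is closed to lanosterol and trimmed in several steps to cholesterol, while isoprenoids for protein prenylation, dolichol and ubiquinone branch off before squalene. When sterols run low in the endoplasmic reticulum, Scap carries SREBP to the Golgi, where it is cut and released to switch on these enzymes. Insig proteins hold Scap back when sterols are plentiful, and Insig1 is itself an SREBP target. Much of the body's sterol is made in other organs, and kidney tubule cells also make and take up cholesterol for their membranes.

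Old kidneys had less mRNA of 5 of the 26 genes than Young kidneys and more of 1. Cyp51, Ebp, Hmgcs1, Mvd and Insig1 fell and Stard4 rose, at an edgeR quasi-likelihood adjusted p under 0.05 over all genes. In whole kidney, fewer cells of a type and less RNA per cell cannot be told apart. None of the 6 passed once a score of daily clock genes, which differed between the age groups, was added to the fit. In that fit 1.02% of all tested genes passed, against 13.6% without the score, and age and clock score cannot be told apart. The fold differences ran from 1.30-fold higher for Stard4 to 2.59-fold lower for Cyp51. The 6 genes are 23.1% of the 26, against 13.6% of all tested genes that passed in either direction. The 5 lower genes are 19.2% of the 26, against 7.13% of all tested genes, and the 1 higher gene is 3.85%, against 6.47%. The median log2 fold change of the 26 was -0.19, against 0.02 over all tested genes, and 16 of the 26 (61.5%) had a negative value, against 47.4% of all tested genes. At an unadjusted p under 0.05 the count was 7 (26.9% of the 26), against 28.1% of all tested genes, with Mvk as the addition. No member passed in Old + YM against Old, in Old + PM against Old, or in Old + PM against Old + YM.

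Totals ran from 8223008 to 10914515 counts, and values are given as CPM, the usual read count scaled to a common library size, after TMM. QuantSeq gives about 1 read per transcript, so CPM is not divided by gene length and is compared only within a gene. All 12 kidney markers were tested and their summed level ran from 17565 to 29148 CPM in Old and from 35787 to 45113 CPM in Young. Most of that gap was Kap, an androgen-driven tubule gene, at 15952 CPM in Old and 32289 CPM in Young. The median log2 fold change of the 12 was -0.13, with Kap called lower and Slc12a3 called higher. Adrenal gland, a steroid-making neighbour of the kidney, was represented by 11 markers whose summed level was 0.885 to 7.35 CPM in Old + PM, highest in Old + PM 3, and between 0.108 and 2.05 CPM in the other 13 libraries. Cyp11b1, Cyp11b2 and Th were at 0 in all 16 libraries. Cyp11a1, Star, Hsd3b1 and Nr5a1 were each highest in Old + PM 3, at 3.21, 2.38, 1.55 and 0.207 CPM. Cyp21a1, Mc2r, Dbh and Chga were at 0 in that library. The part of adrenal tissue in the gene values was not tested.

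Among the first enzymes, which make mevalonate and the isoprenoid units, 2 of 8 fell and none rose. Of all tested genes 7.13% were called lower and 6.47% higher. The median log2 fold change of the 8 was -0.35, against 0.02 over all tested genes. Hmgcs1, the cytosolic synthase that makes HMG-CoA, had 526, 549, 436, 440.1 and 339 CPM in Old and 682, 568, 683, 737 and 522 CPM in Young. Old 1 and Old 2 lay inside the low end of the Young range and the other 3 Old libraries lay below it. Hmgcs1 had a log2 fold change of -0.48 ± 0.12 (SE), with means of 458 ± 83.4 CPM in Old and 638 ± 89.9 CPM in Young (SD, n = 5 each) and an adjusted p of 0.0139 by edgeR. The call was lost without Young 4, at an adjusted p of 0.0604. Over 23 alternative settings its adjusted p ran from 0.00377 to 0.315.

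The promoter of Hmgcs1 is shown because it is the only one of the 5 called genes with a window, Stard4 having none, that holds a sterol regulatory element core, TCACNCC on either strand, in the window given by RefSeq. The Hmgcs1 window lies on the plus strand at chr13:119690101-119690400 of GRCm38.p6 and covers 250 bases before the start site and 50 from it. The 2 core matches, at -220 and -137 from the start site, are in capitals. The promoters of Cyp51 on chr5:4104648-4104947 and of Ebp on chrX:8193463-8193762, both on the minus strand, are set beside it because these are the called genes whose Old and Young libraries did not overlap downward. They were picked after their values were seen. Neither window holds TCACNCC, but only that exact string was searched, so an element spelled otherwise would be missed. Capitals there mark the CCAAT box, written ATTGG where it lies on the other strand, at -29 in Cyp51 and at -170 and -55 in Ebp.
Hmgcs1: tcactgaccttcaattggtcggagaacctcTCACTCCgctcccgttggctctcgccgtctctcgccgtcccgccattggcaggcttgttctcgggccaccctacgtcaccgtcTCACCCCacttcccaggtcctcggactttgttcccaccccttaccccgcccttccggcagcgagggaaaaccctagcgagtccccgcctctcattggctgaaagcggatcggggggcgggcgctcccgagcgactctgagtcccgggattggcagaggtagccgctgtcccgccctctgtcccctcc
Cyp51: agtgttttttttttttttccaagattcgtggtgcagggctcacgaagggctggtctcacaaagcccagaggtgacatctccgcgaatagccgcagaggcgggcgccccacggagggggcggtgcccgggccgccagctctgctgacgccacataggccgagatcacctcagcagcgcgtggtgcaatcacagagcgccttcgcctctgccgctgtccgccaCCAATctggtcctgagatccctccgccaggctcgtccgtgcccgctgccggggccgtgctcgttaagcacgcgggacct
Ebp: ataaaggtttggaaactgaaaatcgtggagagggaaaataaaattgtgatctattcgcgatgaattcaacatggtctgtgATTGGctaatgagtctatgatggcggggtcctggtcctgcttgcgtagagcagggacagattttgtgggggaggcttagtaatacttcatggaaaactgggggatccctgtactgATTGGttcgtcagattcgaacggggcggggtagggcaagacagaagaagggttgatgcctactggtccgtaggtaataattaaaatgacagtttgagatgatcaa

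A promoter window was held for 22 of the 26 genes, without Sqle, Fdft1, Stard4 and Fdps. The core TCACNCC was in 5 of the 22 (22.7%), in Acat2, Hmgcs1, Msmo1, Srebf2 and Insig2, against 17.6% of the windows of all 27025 genes and 19.2% of the 11315 tested genes with a window. CCAAT was in 20 of the 22 (90.9%), against 41.1% of all genes and 42.0% of tested genes. The GC box, GGGCGG, was also in 20 (90.9%), against 38.2% and 65.1%. The E-box, CANNTG, was in 17 (77.3%), against 75.0% and 68.7%. Both strands were searched for each motif, and matches of different motifs may share bases, as a CCAAT and an E-box do in Hmgcs1. A match is a description of letters, not a measured binding site, and lack of a match does not show that a site is absent.

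Mvd, which removes a carboxyl group from mevalonate diphosphate, had 44.0, 48.7, 44.5, 82.7 and 29.1 CPM in Old and 109.9, 94.1, 75.1, 108 and 69.1 CPM in Young. Old 4 was the 1 Old library inside the Young range. Mvd had a log2 fold change of -0.87 ± 0.23 (SE), with means of 49.8 ± 19.9 CPM in Old and 91.3 ± 18.6 CPM in Young (SD, n = 5 each) and an adjusted p of 0.0184 by edgeR. The adjusted p was 0.0528 without Young 1, 0.0549 without Young 4 and 0.0508 with no filter on low counts, within 0.000425 to 0.814 over 23 alternative settings.

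Of the other 6 genes of these steps, none passed between Old and Young. Acat2, the cytosolic thiolase, averaged 139.6 ± 40.2 CPM in Old and 171 ± 26.6 CPM in Young. Mvk, mevalonate kinase, averaged 7.44 ± 2.09 CPM in Old and 9.90 ± 1.11 CPM in Young, with a log2 fold change of -0.41 and an adjusted p of 0.154 by edgeR. Pmvk, the next kinase, averaged 14.5 ± 3.42 CPM in Old and 11.7 ± 3.49 CPM in Young, so its mean differed the other way. Fdps, farnesyl diphosphate synthase, averaged 10.3 ± 7.19 CPM in Old and 11.9 ± 2.58 CPM in Young. Old 4 was at 23.2 CPM and the other 4 Old libraries at 6.68 to 7.69 CPM. Idi1, which isomerises isopentenyl diphosphate, had few reads, with 1 to 17 counts per library in Old and 8 to 21 counts in Young. Ggps1, the synthase of the geranylgeranyl branch, averaged 58.1 ± 6.19 CPM in Old and 57.8 ± 9.90 CPM in Young.

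The 3 squalene enzymes all had a positive log2 fold change and none passed. Fdft1, squalene synthase, averaged 11.4 ± 4.75 CPM in Old and 8.40 ± 2.07 CPM in Young (edgeR log2 fold change 0.44, adjusted p 0.232). Lss, lanosterol synthase, averaged 6.19 ± 1.93 CPM in Old and 4.47 ± 0.991 CPM in Young (edgeR log2 fold change 0.47, adjusted p 0.220). Sqle, squalene epoxidase, averaged 39.8 ± 12.3 CPM in Old and 36.0 ± 6.07 CPM in Young. The median of the 3 was 0.44 on the log2 scale, against 0.02 over all tested genes. The last exon of Fdft1 overlaps Ctsb, which runs the opposite way. Ctsb averaged 387 ± 57.7 CPM in Old and 313 ± 39.8 CPM in Young, also higher in Old and far above Fdft1. The labels do not state whether counting used strand, so reads of the pair cannot be told apart.

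Of the 9 enzymes from lanosterol to cholesterol, 2 fell and none rose, against 7.13% of all tested genes lower and 6.47% higher. The median log2 fold change of the 9 was -0.18, against 0.02 over all tested genes. Cyp51, the lanosterol demethylase, had 94.6, 117, 90.1, 134 and 74.0 CPM in Old and 285, 268, 240.3, 297 and 228 CPM in Young. The highest Old library, Old 4, was below the lowest Young library, Young 5. The log2 fold change was -1.37 ± 0.17 (SE), with means of 102 ± 23.6 CPM in Old and 264 ± 29.1 CPM in Young (SD, n = 5 each) and an adjusted p of 8.79e-05 by edgeR. Cyp51 lies on chromosome 5 at 4081145 to 4104746 on the minus strand of GRCm38 in GENCODE M21. Its last exon overlaps Akap9 on the other strand, with 166 bases shared by the gene bodies. Akap9 averaged 223 CPM in Old and 222 CPM in Young, and its reads cannot be told apart from those of Cyp51 without strand (edgeR log2 fold change 0.01, adjusted p 0.956).

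Ebp, the sterol isomerase of this route, lies on chromosome X at 8185329 to 8193512 on the minus strand. It had 95.1, 101, 82.3, 104 and 69.7 CPM in Old and 161, 139.6, 117, 149 and 127 CPM in Young. As for Cyp51, every Old library was below every Young library. For Ebp the log2 fold change was -0.62 ± 0.11 (SE), with means of 90.4 ± 14.2 CPM in Old and 139 ± 17.6 CPM in Young (SD, n = 5 each) and an adjusted p of 0.00148 by edgeR. Groups did not overlap downward for 2 of the 26 genes (7.69%), Cyp51 and Ebp, against 4.97% of all tested genes.

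**Figure D1:**
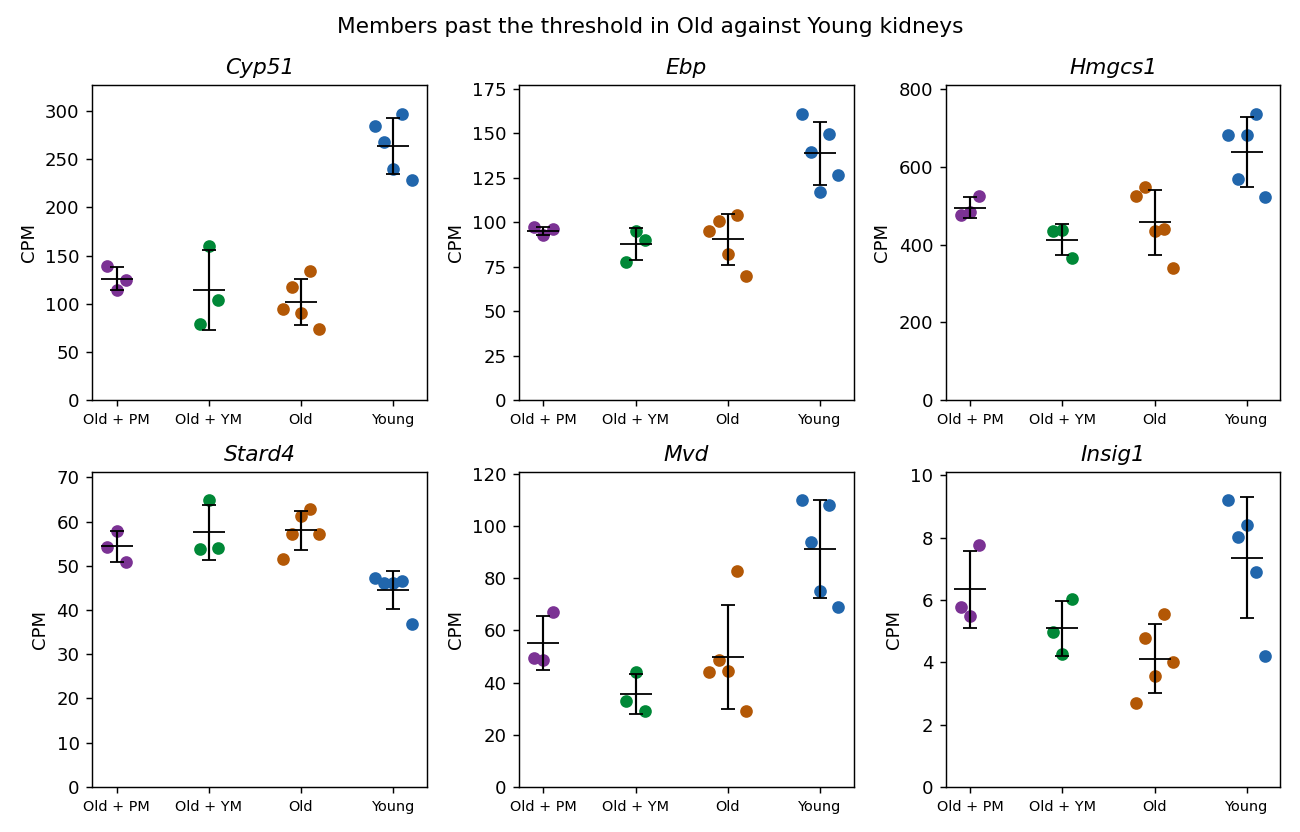
CPM in every library for the 6 genes past the threshold between Old and Young, with 1 point per library a bar at each group's mean and whiskers of 1 SD, groups in the order Old + PM, Old + YM, Old and Young. For Cyp51 the Old points lie between 74.0 and 134 CPM and the Young points between 228 and 297 CPM.

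The plot of the called genes by library shows that, for Cyp51, Ebp and Mvd, every treated library lay below the lowest Young library. These genes are among those called lower in Old than in Young, so their Young values were part of that choice. Treated libraries were not tested against Young, and the share of all tested genes with this order was not counted.

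The other 7 enzymes of this stretch did not pass. Nsdhl, a sterol dehydrogenase, averaged 43.6 ± 10.3 CPM in Old and 54.0 ± 10.05 CPM in Young (edgeR log2 fold change -0.31, adjusted p 0.199). Dhcr7, a dehydrocholesterol reductase of the last step, averaged 7.79 ± 2.47 CPM in Old and 10.4 ± 2.26 CPM in Young (edgeR log2 fold change -0.42, adjusted p 0.227). Msmo1, the methylsterol oxidase, averaged 44.7 ± 21.6 CPM in Old and 50.4 ± 15.9 CPM in Young, and Old 4 stood at 82.4 CPM with the next Old library at 41.7 CPM. The 2 sterol reductases Tm7sf2 and Lbr averaged 2.64 and 54.4 CPM in Old, and 1.69 and 55.2 CPM in Young. Hsd17b7, a ketosteroid reductase, averaged 24.9 ± 2.83 CPM in Old and 24.1 ± 1.38 CPM in Young. Sc5d, a desaturase, averaged 34.2 ± 5.07 CPM in Old and 31.8 ± 5.24 CPM in Young.

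**Figure D2:**
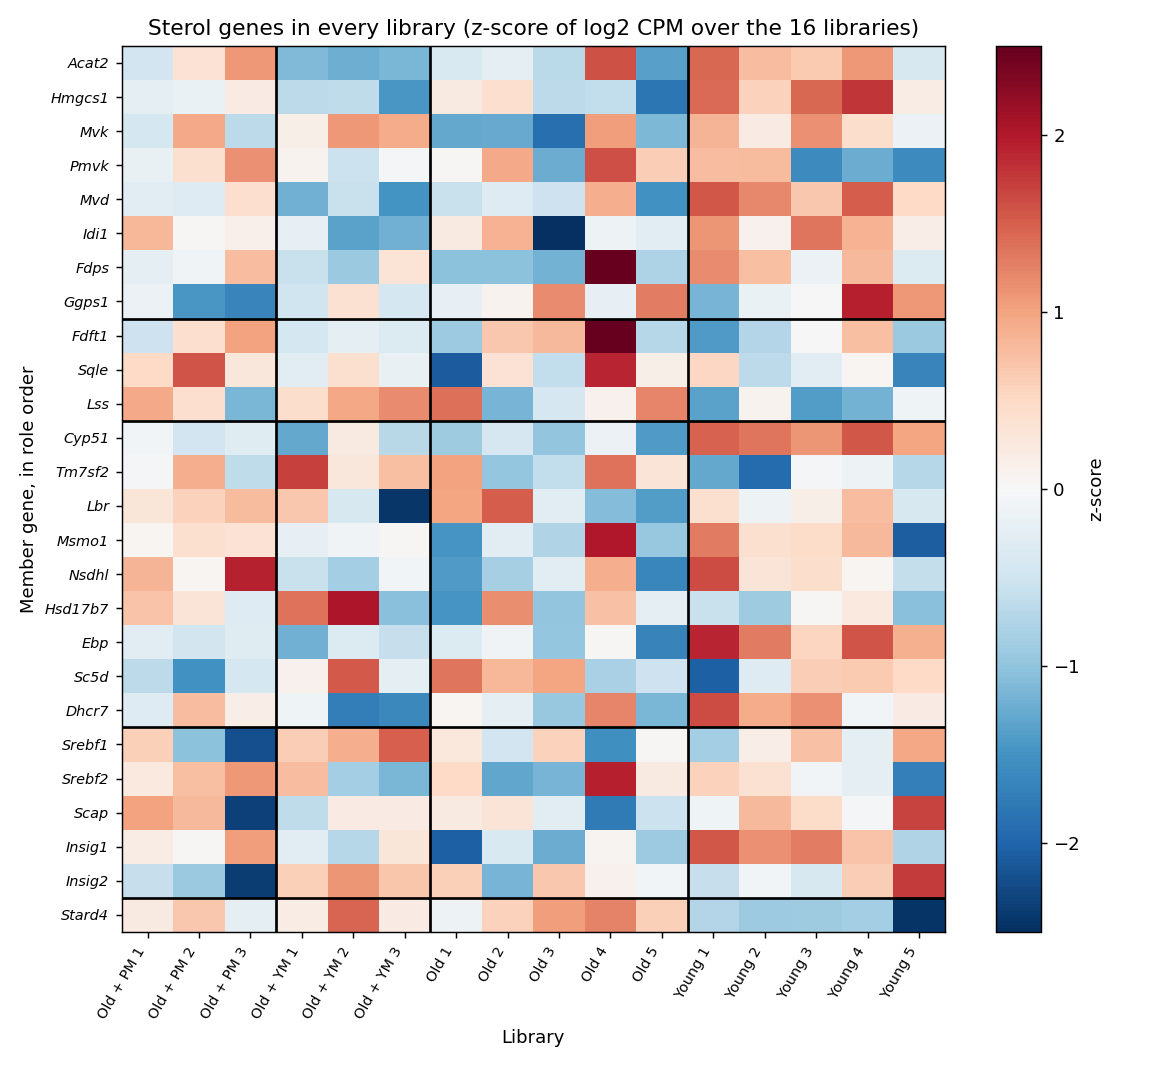
Each of the 26 genes in each of the 16 libraries as a z-score of log2 CPM across libraries, genes ordered by role and libraries by group. Old 4 stands out from the other Old libraries, with the highest value among the 5 Old libraries for 16 of the 26 genes.

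The map of z-scores by library carries 1 further fact about the Old group. Old 4 was the highest Old library for 16 of 26 genes (61.5%), against 26.1% of all tested genes. The mean log2 CPM of the 20 enzymes was 5.03 in Old 4, against 4.39 to 4.66 in the other Old libraries and 4.62 to 4.95 in Young. Young 5 was the lowest Young library for 14 of 26 genes (53.8%), against 31.0% of all tested genes. Without Old 4, 10 members passed (38.5%), 9 of them lower (34.6%). In that fit 18.2% of tested genes passed in either direction, 9.54% lower and 8.64% higher. The added lower genes were Acat2, Fdps, Mvk and Nsdhl, with log2 fold changes of -0.46, -0.73, -0.59 and -0.44. Old 4 was the highest Old library for each of these genes and is singled out here for such values. Leaving it out lowers their Old means by construction, so these added calls are no separate support for a fall. Old 4 also had a clock score of -1.69, against 1.37 to 2.44 in the other Old libraries and -2.86 to -1.28 in Young. This score is the mean z-score of Per1, Per2, Per3, Nr1d1, Nr1d2, Dbp, Tef, Hlf, Ciart and Bhlhe41 minus that of Clock and Npas2. When the clock score entered the fit as a covariate, 0 members passed by edgeR. Of the 26 genes, 12 had an unadjusted p under 0.05, against 15.7% of all tested genes. They were Cyp51, Ebp, Fdft1, Fdps, Hmgcs1, Msmo1, Pmvk, Scap, Sqle, Srebf2, Stard4 and Tm7sf2, and their directions were mixed. Of all tested genes 1.02% then passed, 0.457% higher and 0.559% lower. The log2 fold change of Cyp51 was then -1.03 ± 0.28 (SE), with an adjusted p of 0.0895, the highest of its 23 alternative settings, the lowest being 4.71e-12. With the same covariate the log2 fold changes of Mvd and Insig1 were -0.18 and -0.22, and those of Ebp, Hmgcs1 and Stard4 were -0.40, -0.45 and 0.48. In that fit Fdps and Fdft1 had log2 fold changes of 0.99 and 1.11, with adjusted p of 0.0760 and 0.0892 by edgeR. Of all 26 genes, 12 had a negative value and 14 a positive one. Apart from Old 4, every Old library had a higher clock score than every Young library, so age and clock score cannot be told apart. This covariate was chosen after seeing the data.

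**Figure D3:**
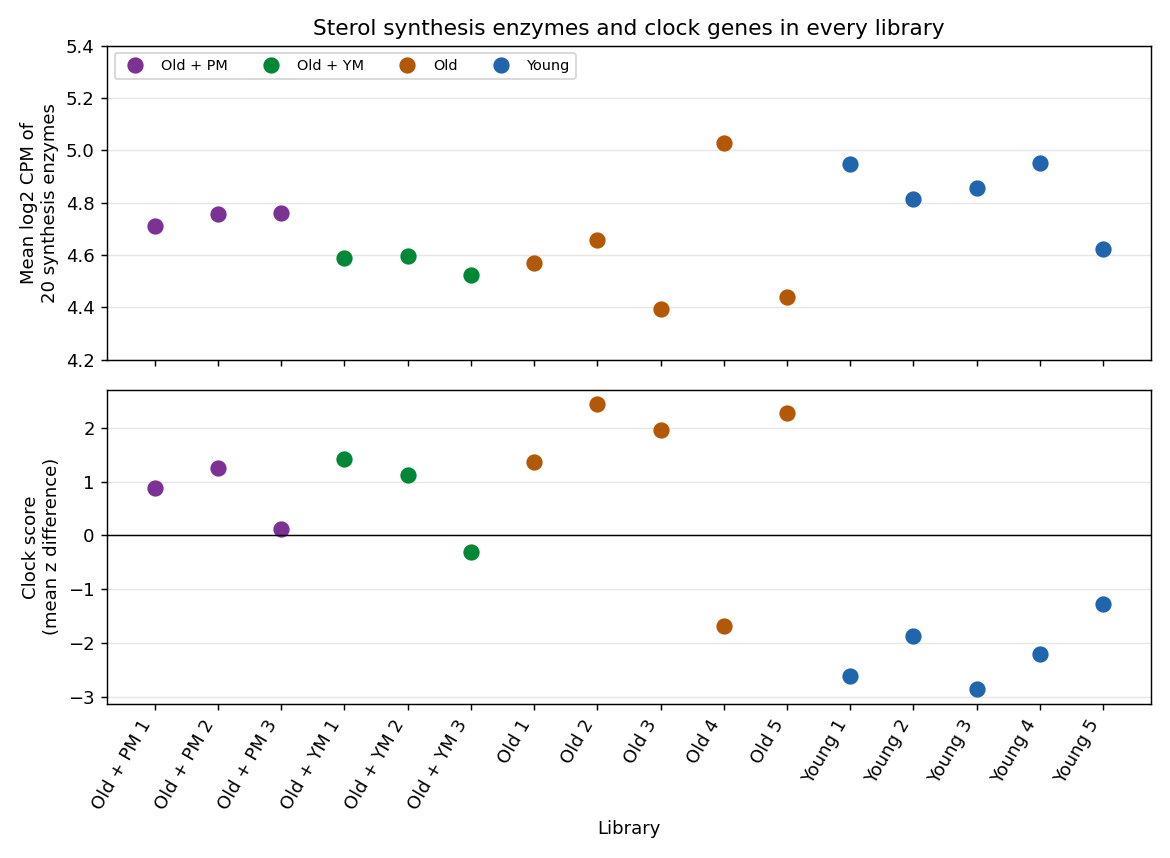
Mean log2 CPM of the 20 synthesis enzymes in each library beside the clock score of the same library, with 1 point per library and groups in the order Old + PM, Old + YM, Old and Young. Old 4 is the highest library in the enzyme panel at 5.03 and sits with the Young libraries in the clock panel at -1.69.

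The 5 regulators of SREBP included 1 gene that fell, Insig1, and 4 that did not pass. Across all tested genes, 7.13% were called lower and 6.47% higher. Insig1, which retains Scap, had 2.69, 4.78, 3.55, 5.55 and 3.99 CPM in Old and 9.19, 8.03, 8.40, 6.90 and 4.21 CPM in Young. Old 2 and Old 4 lay above Young 5 and below the other Young libraries. The log2 fold change was -0.84 ± 0.24 (SE), with means of 4.11 ± 1.11 CPM in Old and 7.35 ± 1.94 CPM in Young (SD, n = 5 each) and an adjusted p of 0.0259 by edgeR. This call had the highest adjusted p of the 6 and was lost without Young 1, 2 or 3 or Old 1, 3 or 5, at adjusted p between 0.0525 and 0.0744. Over 23 alternative settings it ran from 0.00949 to 0.838. Srebf1 and Srebf2, which encode the SREBPs, averaged 7.91 ± 3.07 and 24.1 ± 7.22 CPM in Old, and 9.71 ± 3.74 and 22.4 ± 3.99 CPM in Young. Scap averaged 59.9 ± 7.66 CPM in Old and 69.8 ± 8.50 CPM in Young. Insig2, the other Insig, averaged 25.2 ± 4.84 CPM in Old and 27.3 ± 7.98 CPM in Young. The last exons of Srebf1 and Lbr overlap Rai1 and Dnah14 on the opposite strand, and Fdps and Tm7sf2 overlap Gm43738 and Vps51 on the same strand, so reads of these pairs may be shared.

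Stard4, a cytosolic protein that moves sterols between membranes, was the 1 gene that rose. It had 51.6, 57.2, 61.2, 63.0 and 57.2 CPM in Old and 47.3, 46.0, 46.2, 46.5 and 36.8 CPM in Young. Every Old library was above every Young library, as for 4.21% of all tested genes. In Stard4 the log2 fold change was 0.38 ± 0.10 (SE), with means of 58.0 ± 4.40 CPM in Old and 44.6 ± 4.36 CPM in Young (SD, n = 5 each) and an adjusted p of 0.0148 by edgeR.

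Other genes near the pathway were counted the same way, from lists chosen for their known roles with earlier results of these data known. Of 18 tested fatty acid genes driven by SREBP-1, 5 fell and none rose, against 7.13% of all tested genes lower and 6.47% higher. Their median log2 fold change was -0.39, against 0.02 over all tested genes. Fasn, fatty acid synthase, averaged 39.7 ± 18.5 CPM in Old and 88.7 ± 18.1 CPM in Young (edgeR log2 fold change -1.16, adjusted p 0.00627). Acss2, Scd2, Me1 and Thrsp had log2 fold changes of -0.41, -0.49, -0.51 and -1.19. The Thrsp call was lost in 16 of 23 alternative settings and is near the threshold, at an adjusted p of 0.0436. Of the 6 adipose markers tested, out of 7, none passed, 5 had a negative log2 fold change and the median was -1.35. Plin1 averaged 0.154 CPM in Old and 1.17 CPM in Young, and Cidec 0.234 CPM in Old and 0.787 CPM in Young. Their summed level, mostly Fabp4 at 48.6 CPM in both groups, was 38.5 to 69.6 CPM in Old and 24.0 to 140.3 CPM in Young. The part of adipose tissue in the fatty acid gene values was not tested.

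Of 11 tested LXR target and efflux genes, 2 rose and 2 fell, against 6.47% of all tested genes higher and 7.13% lower. Apoe, an apolipoprotein that carries cholesterol, rose by 1.76 on the log2 scale, with means of 655 ± 273 CPM in Old and 194 ± 20.3 CPM in Young. Summed macrophage markers, 10 of 10 tested, were 196 to 1276 CPM in Old, with Old 5 highest, and 175 to 216 CPM in Young, and their part in the Apoe value was not tested. Arl4c rose by 0.81, and Nr1h3, which encodes the sterol-sensing receptor LXR alpha, and the phospholipid-remodelling enzyme Lpcat3 had log2 fold changes of -0.59 and -0.38. Of 17 tested uptake and transport genes, 1 fell and none rose, against 7.13% of all tested genes lower and 6.47% higher. It was Nceh1, a cholesteryl ester hydrolase (log2 -0.48), whose call was lost in 3 of 23 alternative settings. In the isoprenoid branch, 3 of 15 fell, Dhdds of dolichol synthesis and Pdss1 and Pdss2 of the ubiquinone side chain, with log2 fold changes of -0.44, -0.70 and -0.52, against 7.13% of all tested genes lower. These calls were lost in 7, 9 and 10 of 23 alternative settings, and that of Lpcat3 in 10. Of the 9 tested genes in the sterol hydroxylase list, 1 rose and 1 fell, against 6.47% of all tested genes higher and 7.13% lower. Hsd3b7, a bile acid synthesis enzyme, rose by 0.84 and Cyp7b1, an oxysterol hydroxylase, fell by 1.89, both on the log2 scale. With the clock covariate, Me1, Apoe and Cyp7b1 still passed, and the other 12 called genes named from these lists did not. Apoe and Cyp7b1 passed in all 23 alternative settings, while the Me1 call was lost in 8, in 7 of them with 1 library left out.

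The treated groups were set against Old, so these comparisons share the Old libraries. In Old + YM against Old, 0 members passed by edgeR and 0 by DESeq2, against 0.0205% of all tested genes by edgeR. At an unadjusted p under 0.05 the count was 2 (7.69%), Mvk and Srebf1, against 9.48% of all tested genes. Mvk had 9.11, 11.2 and 10.8 CPM in Old + YM, against 6.67, 6.70, 5.84, 11.1 and 6.89 CPM in Old, so Old 4 alone of the Old libraries lay among the treated ones. Its log2 fold change was 0.48 (95% interval 0.03 to 0.92, adjusted p 0.501 by edgeR). Srebf1 had 11.8, 13.9 and 19.1 CPM in Old + YM, against 9.66, 6.41, 11.5, 3.51 and 8.49 CPM in Old, without overlap. That made 1 of 26 genes without overlap (3.85%), against 9.1% of all tested genes, 5.15% higher and 3.95% lower. The log2 fold change of Srebf1 was 0.92 (95% interval 0.01 to 1.83, adjusted p 0.520 by edgeR). Summed adipose markers were 95.4 to 165 CPM in Old + YM and 38.5 to 69.6 CPM in Old, with a median log2 fold change of 2.25 over the 6 tested and none called, and their part in the Srebf1 value was not tested.

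Acat2, Mvd and Dhcr7 followed, with values below Old on average. Acat2 had 109.8, 107 and 109 CPM in Old + YM, against 130.4, 135, 121, 208 and 103 CPM in Old (log2 -0.36, 95% interval -0.75 to 0.02). Mvd had 33.1, 44.0 and 29.2 CPM in Old + YM, against the Old values given above (log2 -0.49, 95% interval -1.06 to 0.08). Dhcr7 had 7.76, 4.62 and 4.81 CPM in Old + YM, against 8.16, 7.46, 5.95, 11.8 and 5.59 CPM in Old (log2 -0.44, 95% interval -1.0 to 0.12). Each of these intervals includes 0. Cyp51 and Ebp, the genes with the smallest p between Old and Young, averaged 114 ± 41.4 and 87.8 ± 9.03 CPM in Old + YM (SD, n = 3), with log2 fold changes of 0.16 and -0.04 against Old.

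In Old + PM against Old, 0 members passed by edgeR and 0 by DESeq2, and 0% of all tested genes passed by edgeR. At an unadjusted p under 0.05 the count was 4 (15.4%), against 6.16% of all tested genes. Nsdhl had 59.3, 49.7 and 75.0 CPM in Old + PM, against 36.0, 40.9, 46.4, 60.03 and 34.4 CPM in Old, and Old 4 lay among the treated libraries. Its log2 fold change was 0.49 (95% interval 0.13 to 0.86, adjusted p 0.790 by edgeR). Insig2 had 20.9, 18.9 and 12.5 CPM in Old + PM, against 29.1, 17.7, 29.8, 25.3 and 24.2 CPM in Old (log2 -0.53, 95% interval -0.98 to -0.08). Insig1 had 5.78, 5.48 and 7.76 CPM in Old + PM, against the Old values given above (log2 0.62, 95% interval 0.05 to 1.19). Old + PM 3, the library highest in adrenal markers, was the highest Old + PM library for Nsdhl and Insig1 and the lowest for Insig2. The part of adrenal tissue in these values was not tested. The groups overlapped for all 26 genes, while 4.02% of all tested genes did not overlap, 1.92% higher and 2.1% lower.

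Ggps1 and Sc5d were the next by p. Ggps1 had 53.3, 44.3 and 43.2 CPM in Old + PM, against 52.9, 55.1, 64.4, 52.9 and 65.2 CPM in Old (log2 -0.31, 95% interval -0.59 to -0.02). Sc5d had 28.9, 25.2 and 29.8 CPM in Old + PM, against 39.5, 36.5, 37.3, 28.2 and 29.5 CPM in Old (log2 -0.29, 95% interval -0.62 to 0.04). Cyp51 and Ebp averaged 126 ± 12.3 and 95.3 ± 2.30 CPM in Old + PM (SD, n = 3), with log2 fold changes of 0.31 and 0.08 against Old. The 95% interval of Cyp51 ran from -0.10 to 0.71, which includes 0. The median log2 fold change of the 26 was 0.08, against -0.02 over all tested genes.

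**Figure D4:**
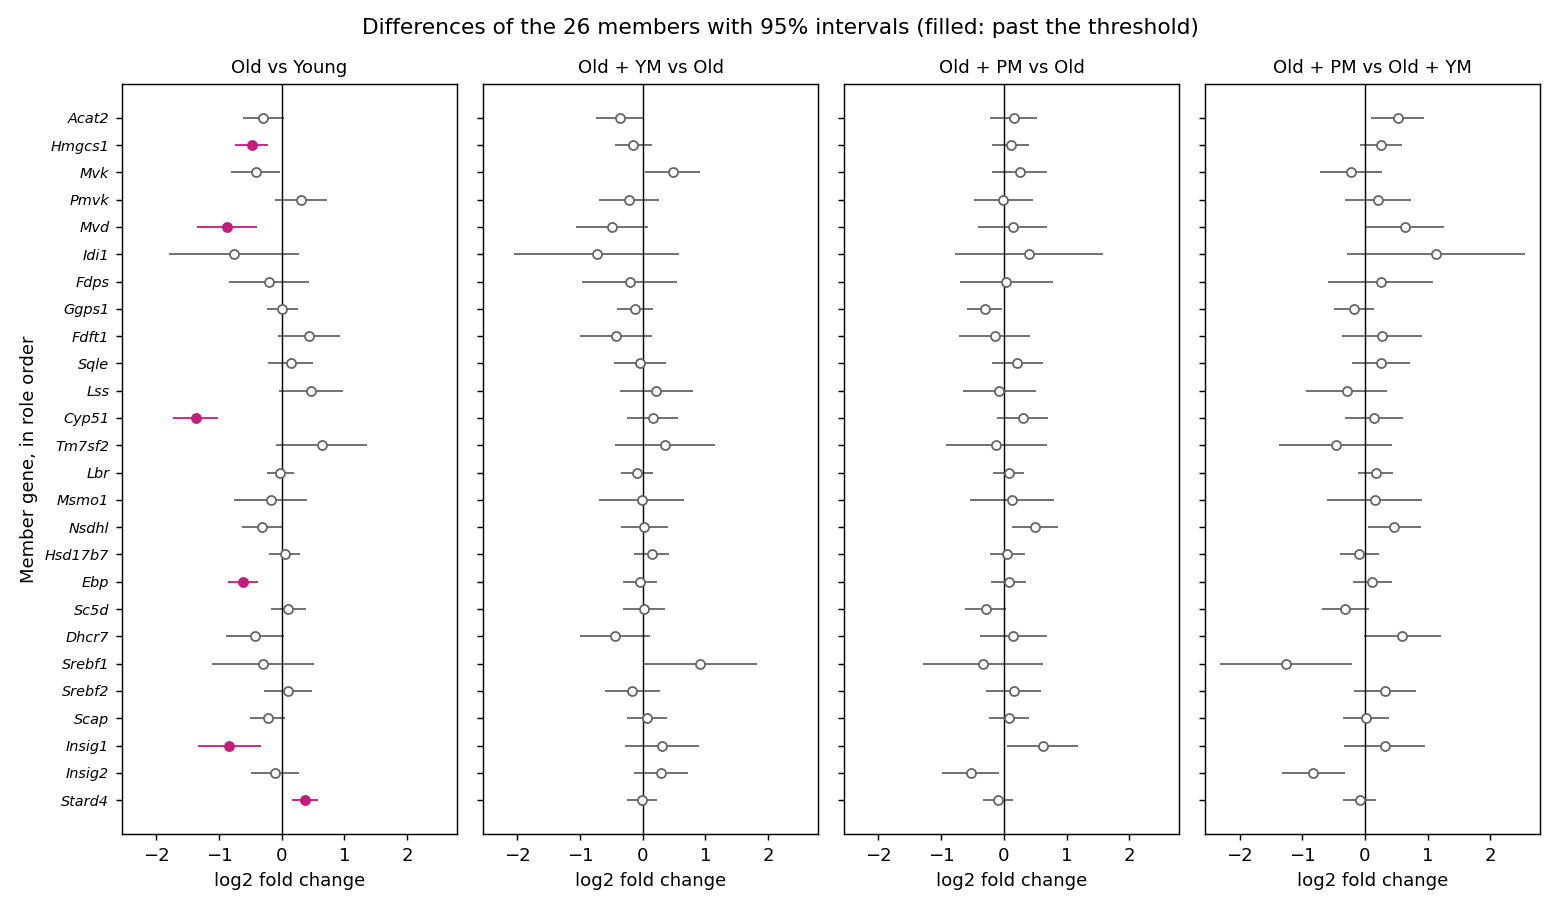
Log2 fold change with its 95% interval for each of the 26 genes in 4 panels, the first for age, the next for each formula against untreated Old, and the last for PM over YM. Genes run in the order of their roles, and filled points are past the threshold. The Old against Young interval of Cyp51 runs from -1.73 to -1.01, and the intervals of Cyp51 in the other 3 panels include 0.

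Hmgcs1 and Stard4, called in the age comparison, did not pass in either treated group. Hmgcs1 averaged 495 ± 26.3 CPM in Old + PM and 413 ± 40.2 CPM in Old + YM (SD, n = 3 each), with log2 fold changes against Old of 0.11 and -0.15. Stard4 averaged 54.4 ± 3.51 CPM in Old + PM and 57.6 ± 6.25 CPM in Old + YM, with log2 fold changes against Old of -0.09 and -0.01. Both 95% intervals of each gene include 0. By role, the mevalonate and isoprenoid genes had a median log2 fold change of 0.13 in Old + PM and -0.21 in Old + YM against Old, and the genes from lanosterol to cholesterol had 0.08 and 0.02. Over all tested genes these medians were -0.02 in Old + PM and -0.03 in Old + YM. No gene of the other pathway lists passed in either treated group against Old.

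Old + PM and Old + YM, both aged and dosed alike, were also compared directly. Again 0 members passed by edgeR and 0 by DESeq2, and 0% of all tested genes passed by edgeR. Of the 26 genes, 5 (19.2%) had an unadjusted p under 0.05, against 12.8% of all tested genes. Groups did not overlap for 9 of the 26 genes (34.6%), against 23.8% of all tested genes. Acat2, Hmgcs1, Idi1, Msmo1, Mvd and Nsdhl were higher in every Old + PM library (23.1% of the 26, against 11.9% of all tested genes), and Insig2, Sc5d and Srebf1 were lower in every one (11.5%, against 11.9%). With 3 libraries a group this ordering is a description and not a call.

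The values behind the 5 smallest p-values of this pair are as follows. Insig2 had 20.9, 18.9 and 12.5 CPM in Old + PM and 29.1, 33.7 and 30.0 CPM in Old + YM (log2 -0.82, 95% interval -1.32 to -0.32, adjusted p 0.258 by edgeR). Acat2 had 127, 155 and 184 CPM in Old + PM and 109.8, 107 and 109 CPM in Old + YM (log2 0.52, 95% interval 0.10 to 0.95). Srebf1 had 11.7, 4.69 and 2.38 CPM in Old + PM and 11.8, 13.9 and 19.1 CPM in Old + YM (log2 -1.25, 95% interval -2.30 to -0.20). Old + PM 1 was close to Old + YM 1 for Srebf1. Nsdhl and Mvd had log2 fold changes of 0.47 and 0.64, with Mvd at 49.6, 48.6 and 67.0 CPM in Old + PM and 33.1, 44.0 and 29.2 CPM in Old + YM. Nsdhl had 43.4, 40.7 and 48.5 CPM in Old + YM. Old + PM 3, the library highest in adrenal markers, was the highest Old + PM library for Acat2, Mvd and Nsdhl. It was the lowest for Insig2 and Srebf1, and the part of adrenal tissue in these values was not tested. Summed adipose markers were 21.9 to 78.5 CPM in Old + PM and 95.4 to 165 CPM in Old + YM, with a median log2 fold change of -1.40 over the 6 tested and none called, and their part in these values was not tested.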

How the data were processed

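Libraries of mouse kidney, 16 in 4 groups, were compared. Per the labels' protocols, RNA was extracted with Trizol and 500 ng went into the QuantSeq kit. Raw counts for each gene symbol were deposited by the authors, and the submitters' processing notes name Bowtie2, bedtools and mm10 without versions. The sources used here give no annotation, strand setting or handling of multiple alignments.

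The main test was edgeR 4.0.16 under R 4.3.3 (quasi-likelihood, robust, TMM, filterByExpr minimum count 10), with all 16 libraries and a group term in 1 fit. P-values were two-sided and Benjamini-Hochberg adjusted over 14665 genes at 0.05, and 4 comparisons were made. DESeq2 1.42.0, upper quartile scaling, no filter, the compared groups alone, a replicate block and leaving out each library were alternatives. Log2 CPM used a prior count of 2. Libraries of a group differed beyond sampling noise. The steps were tested on simulated data. The members and lists were chosen with earlier results of these data known. All members are named, with each library's value for those past the threshold and for the 5 smallest p-values where fewer than 3 passed. From other lists, genes past the threshold were named, at most 5 per list. The result of 1 list of further sterol genes is not reported here. Gene positions come from GENCODE M21 and promoter windows from RefSeq GRCm38.p6.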

Additional observations from a re-analysis of the deposited data

Results flagged for a closer look

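In groups of 5 libraries, 54 sets of values, of the 26 genes and of the mean level of the 20 enzymes in Old and in Young, were examined for a library far from the others, by the gap to the nearest library over the whole range (critical value 0.71), and 4 stood out. Chance gives about 1 in 20 such groups. Old 4 was highest in 3 of them. Mvk was at 11.1 CPM in Old 4, with the nearest Old library at 6.89 CPM (ratio 0.801). Fdps was at 23.2 CPM, with the nearest at 7.69 CPM (ratio 0.939). Msmo1 was at 82.4 CPM, with the nearest at 41.7 CPM (ratio 0.762). Stard4 was lowest in Young 5, at 36.8 CPM, with the nearest Young library at 46.0 CPM (ratio 0.878).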

How the results depend on the processing

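Between Old and Young, the count of 6 members (5 lower, 1 higher) was 6 with upper quartile scaling and with DESeq2, and 5 without the filter and with only the compared groups in the fit. Leaving out each library gave 4 to 10 members, 3 to 9 lower and 1 higher each time. Without Old 4, 18.2% of all tested genes passed, against 13.6% in the main fit. That share is not given here for the other left-out libraries or the settings named before them. Their counts therefore cannot be read against the main 6. The lowest counts of lower genes came without Young 1 or Young 4. When clock score was a covariate 0 members passed, 0 higher and 0 lower. Without Old 4 and Old 5, 7 passed, all lower, and 0 higher, with Stard4 at a log2 fold change of 0.34 and an adjusted p of 0.0525. The share of all tested genes that passed in that fit is not given here, so the 7 cannot be read against the main 6. The cause of these changes was not tested. Both of these settings were added after seeing the data. The Hmgcs1 adjusted p was 0.0604 without Young 4 and 0.0559 without Old 4 and Old 5. No direction was reversed for the 6 called genes. The other 3 comparisons had 0 members past the threshold in each leave-one-out fit. Over all genes, 1995 passed between Old and Young, against 149 with the clock covariate.

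Replicate numbers did not pair the libraries. Deviations of same-numbered Old and Young libraries correlated at -0.0575 to 0.131, and 3 of 10 libraries correlated best with their own number. With a replicate block, 6 members passed between Old and Young, and 2104 genes in all, and 0 members in the other 3 comparisons. Depth limits Idi1, with 1 to 21 counts per library, and Tm7sf2, with 10 to 43 counts.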
